A study of Mus musculus with 48 samples.

Results

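Cry1, Cry2, Ciart, Bhlhe40, Nr1d2 and Rora, 6 genes of the circadian clock, were followed through the day in epidermal stem cells of aged and young mice. Every probe set whose only gene symbol was 1 of these names was taken, which gave 11 probe sets. Where a gene had several, the brightest on average over the 48 arrays stood for it and the rest served as a check. All 6 genes passed the limit on dim signals, among 12823 genes tested of 17097 with a probe set. Epidermal stem cells (EpSCs) came from the epidermis of wild type female C57B6/J mice, aged animals of 102 to 116 weeks and young animals of 8 weeks. Cells were taken every 4 h, at 6 times of day from ZT0 to ZT20, with 4 mice per age and time, where ZT is the time in hours after lights on. Both age groups share sex, strain and genotype and carry no transgene or treatment in the labels. No light schedule, sorting gate or cell purity is given in the sources used here.

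The mammalian clock is a loop in which CLOCK and BMAL1 (gene Arntl) bind E-box motifs and switch on the genes of their own repressors. CRY1 and CRY2, the cryptochromes, join the PER proteins and block CLOCK and BMAL1, with CRY1 acting late in the cycle. CIART, also called CHRONO, binds BMAL1 and represses it, and BHLHE40 (DEC1) competes for the E-box. A linked loop runs through the RORE motif, where NR1D2 (REV-ERB beta) represses and RORA activates genes such as Arntl and Cry1. Rora is therefore the exception among these genes, known as an activator and not as a repressor.

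Each value is the log2 expression that the authors made with RMA, a method that adjusts background, aligns the arrays and summarises the probes of a probe set. Array medians ran from 4.78 to 5.04, no arrays held identical values, and the number of arrays limits the precision. The basal keratinocyte genes that mark the labelled cell were bright. Krt5 averaged 12.68 in aged and 12.70 in young cells, and Krt14 12.43 in aged and 12.36 in young cells. Itga6 averaged 11.07 in aged and 10.997 in young cells. Several suprabasal keratinocyte genes were bright as well. Krt1 averaged 11.71 in aged and 11.64 in young cells, and Krt10 11.69 in aged and 11.72 in young cells. Sbsn averaged 11.38 in aged and 11.28 in young cells, and Krtdap 9.60 in aged and 9.59 in young cells. Ivl (6.46 in aged, 6.32 in young) and Lor (6.23 in aged, 6.98 in young) were dimmer, and Flg lay under the dim limit. Cd34, which marks stem cells of the hair follicle bulge, averaged 3.33 in aged and 3.28 in young cells, under the dim limit of 3.96. Lgr5 of the same marker list lay under the limit too, and the other measured bulge markers lay above it. Sox9 averaged 9.60 in aged and 9.56 in young cells, and Nfatc1 9.45 in aged and 9.36 in young cells. Dkk3 averaged 6.90 in aged and 6.95 in young cells, Tcf7l1 5.14 and 4.996, and Lhx2 4.07 and 4.36. The 4 arrays of lowest weight were aged ZT12 replicate 1, young ZT4 replicate 1 and young ZT0 replicates 2 and 3. In these bulk samples, fewer cells of a type and less RNA per cell cannot be told apart.

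The repressors Cry1, Ciart and Nr1d2 swung through the day at both ages. The rhythm of Cry2 was called in aged cells and narrowly missed in young cells. Bhlhe40 and Rora showed no 24 h rhythm past the threshold at either age. Counted from ZT0, Nr1d2 peaked first, Ciart and Cry2 about together after it, and Cry1 last. The amplitude of a fitted 24 h cosine, from its mean to its peak on the log2 scale, was 0.94 in aged and 1.17 in young cells for Nr1d2 (SE 0.08). It was 0.75 in aged and 0.73 in young cells for Ciart (SE 0.07), and 0.69 in aged and 0.79 in young cells for Cry1 (SE 0.12). Bhlhe40 and Rora had a higher level in aged cells averaged over the day, though not at every time. Neither level call held with scores of 5 cell type marker lists in the fit as cell mixture covariates (adjusted p = 0.533 for Bhlhe40 and 0.496 for Rora). The difference of Bhlhe40 at ZT0 still passed in that fit. The level call of Rora was also lost in 26 of 48 fits that left out 1 array each.

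By limma's F test with Benjamini-Hochberg adjustment over all tested genes, 4 of the 6 genes were rhythmic in aged cells, where 1.36% of all genes were called. In young cells 3 of the 6 were rhythmic, against 6.27% of all genes. Cry1, Ciart and Nr1d2 were rhythmic at both ages, which 0.811% of all genes were. The median amplitude over all tested genes was 0.08 in aged and 0.09 in young cells. A free mean at each time in place of the cosine called the same 4 genes in aged cells (8.36% of all genes) and the same 3 in young cells (17.5% of all genes). The aged count ran from 3 to 6 over the alternatives. It was 6 with array weights, where Bhlhe40 (adjusted p = 0.0405) and Rora (0.0291) passed as well, and also without the 4 arrays of lowest weight (0.0383 and 0.0490). No difference of rhythm between the ages passed: 0 of the 6 genes and 0% of all genes passed limma's test of the difference, and 0 of the 6 had an unadjusted p under 0.05.

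**Figure D1:**
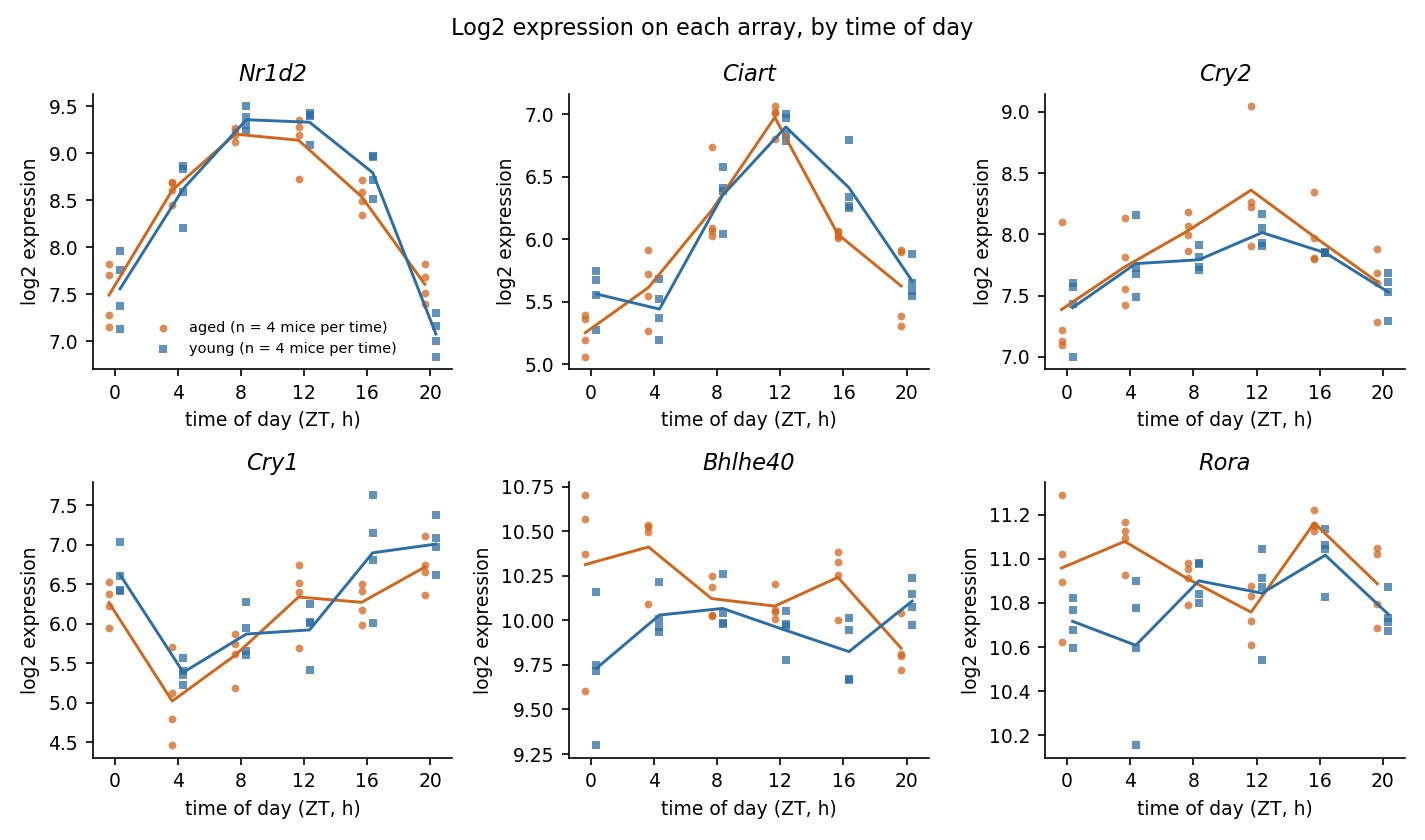
Log2 expression of the 6 genes (y axis) against time of day in hours (x axis), with aged cells in orange and young cells in blue. Points are single arrays, 4 per age and time, and lines join the means; Nr1d2 is highest at ZT8 and Cry1 at ZT20 at both ages.

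The letters upstream of the 4 genes that were rhythmic in at least 1 age are shown because their levels moved through the day, with peaks at different times. The 250 bases before the start site are from RefSeq on GRCm38.p6, written 5′ to 3′ along the gene; 5 of the 6 genes matched an entry. Capitals mark CACGTG (the E-box), CACGTT or its reverse complement AACGTG (an E-box variant), and AGGTCA (the core of the RORE); TTATGTAA and TTACGTAA, which DBP, TEF and NFIL3 bind, were also searched on both strands.
Cry1: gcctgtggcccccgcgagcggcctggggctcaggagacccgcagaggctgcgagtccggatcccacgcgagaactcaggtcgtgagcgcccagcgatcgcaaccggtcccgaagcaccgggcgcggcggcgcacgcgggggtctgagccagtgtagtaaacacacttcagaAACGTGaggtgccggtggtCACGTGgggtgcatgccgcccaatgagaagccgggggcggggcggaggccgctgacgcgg
Cry2: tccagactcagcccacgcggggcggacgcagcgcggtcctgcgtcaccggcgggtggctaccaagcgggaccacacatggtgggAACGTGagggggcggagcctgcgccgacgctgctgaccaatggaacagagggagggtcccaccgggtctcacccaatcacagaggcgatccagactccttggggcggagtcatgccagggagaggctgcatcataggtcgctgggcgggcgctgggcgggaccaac
Ciart: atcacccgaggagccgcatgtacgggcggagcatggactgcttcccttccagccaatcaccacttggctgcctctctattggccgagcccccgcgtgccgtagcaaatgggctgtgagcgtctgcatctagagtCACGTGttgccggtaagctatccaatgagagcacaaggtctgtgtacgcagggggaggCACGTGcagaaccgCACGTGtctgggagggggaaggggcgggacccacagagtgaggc
Nr1d2: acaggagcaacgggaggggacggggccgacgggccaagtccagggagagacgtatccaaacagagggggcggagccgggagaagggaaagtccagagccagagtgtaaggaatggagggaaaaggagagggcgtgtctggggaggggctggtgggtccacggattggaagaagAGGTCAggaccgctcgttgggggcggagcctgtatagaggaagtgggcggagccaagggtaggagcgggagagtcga

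The Cry1 stretch is chr10:85185055-85185304, the Cry2 stretch chr2:92434070-92434319, the Ciart stretch chr3:95882229-95882478 and the Nr1d2 stretch chr14:18239107-18239356, all on the minus strand. The Ciart stretch held 3 E-boxes, which start 116, 58 and 44 bases before the start site. CACGTG stood in 6.02% of the 32851 promoter windows of the same length, and 3 or more copies in 0.0609% of them, 20 windows. Cry1 had 1 E-box, starting 60 bases before the start site, and 1 variant, starting 79 bases before it. Cry2 had the variant alone, starting 166 bases before the start site; the variant stood in 3.85% of windows. Nr1d2 had no E-box of either form in its window and 1 AGGTCA, starting 77 bases before the start site, which 14.02% of windows held. The Rora window, chr9:68653536-68653785 on the plus strand, held none of the 5 motifs. TTATGTAA stood in 0.819% and TTACGTAA in 0.113% of all windows and in none of these 5. A match is a description of the letters in the window and not evidence of binding. The Rora window lies inside the gene span given below, and the Cry2 and Ciart windows overlap the ends of theirs. The start sites used for these genes are thus not at the outer ends of those spans.

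Cry1 (chr10:85131700-85185054 on GRCm38.p6, probe set 1433733_PM_a_at) encodes the cryptochrome whose repression is strongest late in the cycle. At ZT20 its log2 expression was 6.66, 6.75, 7.11 and 6.36 in aged cells and 7.08, 7.37, 6.97 and 6.61 in young cells. At ZT4 it was 5.70, 5.13, 4.46 and 4.79 in aged cells and 5.40, 5.35, 5.23 and 5.56 in young cells. ZT20 was the highest and ZT4 the lowest time at both ages, and the arrays of these times did not overlap within either age. The ZT20 mean was 3.25 times the ZT4 mean in aged cells and 3.09 times in young cells. The fitted peak stood at 17.74 ± 0.67 h in aged and 18.84 ± 0.59 h in young cells (SE), and the rhythm passed at both ages (adjusted p = 0.00187 in aged and 7.33e-05 in young). In a rank test for rhythms the aged call was lost (adjusted p = 0.184). The peak in aged cells was earlier by an estimate of -1.09 h, with a 95% interval of -2.90 to 0.71 h that holds 0.

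Cry1 had the lower mean in aged cells at 5 of the 6 times, but none of these differences passed. At ZT16 the values were 6.42, 6.18, 6.50 and 5.99 in aged cells and 6.01, 6.81, 7.64 and 7.15 in young cells. The ages overlapped there, and the difference was -0.63 (adjusted p = 0.185). At ZT12 the aged mean was the higher, 6.34 ± 0.45 in aged and 5.92 ± 0.36 in young cells (SD, n = 4; adjusted p = 0.485). Over the whole day the level was 6.04 in aged and 6.28 in young cells, a difference of -0.25 (SE 0.12, adjusted p = 0.156), and the amplitude differed by -0.10 (95% interval -0.44 to 0.24).

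Cry2 (chr2:92403646-92434085, probe set 1426383_PM_at), the other cryptochrome, had a shallower course. Its highest mean was at ZT12, with 9.05, 8.26, 7.91 and 8.23 in aged cells and 7.91, 8.05, 8.17 and 7.93 in young cells. Its lowest was at ZT0, with 7.22, 8.10, 7.10 and 7.13 in aged cells and 7.43, 7.0004, 7.60 and 7.57 in young cells. In aged cells the arrays of these times overlapped through replicate 2 at ZT0, and in young cells they did not. The ZT12 mean was 1.97 times the ZT0 mean in aged cells and 1.53 times in young cells.

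The amplitude of Cry2 was 0.44 in aged and 0.27 in young cells (SE 0.07), and the rhythm was called in aged cells (adjusted p = 0.00119) and narrowly missed in young cells (adjusted p = 0.0518). In young cells it passed in 14 of 61 alternative settings, among them each age fitted alone (adjusted p = 0.0107). The young variation between times missed in the main fit (adjusted p = 0.106) and passed with each age fitted alone (0.0158). The main fit shares its estimate of the spread between the ages, while the SD within times was 0.34 in aged and 0.19 in young cells. The cosine took up 51.2% of the variance in aged and 53.1% in young cells. In a rank test for rhythms the aged call was lost (adjusted p = 0.165) and the young one passed (adjusted p = 0.0233). The variation between times in aged cells (adjusted p = 0.00427) was lost with cell mixture covariates (0.0550) or with each age fitted alone (0.0588). The difference of the rhythms did not pass (adjusted p = 0.869), and the amplitude differed by 0.17 (95% interval -0.04 to 0.38). The level over the day was 7.85 in aged and 7.72 in young cells (difference 0.13, SE 0.07, adjusted p = 0.258).

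Ciart (chr3:95878500-95882257, probe set 1435188_PM_at) encodes the BMAL1 repressor CHRONO. At ZT12 its log2 expression was 7.01, 7.02, 6.80 and 7.07 in aged cells and 6.84, 6.97, 7.002 and 6.78 in young cells. At ZT0 it was 5.19, 5.06, 5.40 and 5.36 in aged cells and 5.75, 5.28, 5.55 and 5.67 in young cells. ZT12 was the highest time at both ages, while the lowest was ZT0 in aged cells and ZT4 in young cells, where the mean was 5.44 ± 0.21 (SD, n = 4). The highest mean was 3.30 times the lowest in aged cells and 2.74 times in young cells, without overlap of arrays within an age.

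The rhythm of Ciart passed at both ages (adjusted p = 2.46e-09 in aged and 4.15e-09 in young), and its amplitude differed by 0.02 (95% interval -0.19 to 0.23). The fitted peak was at 11.74 ± 0.37 h in aged and 12.43 ± 0.38 h in young cells (SE), a difference of -0.70 h (95% interval -1.77 to 0.38 h). At ZT16 the 4 aged arrays, 6.03, 6.07, 6.01 and 6.06, all lay under the 4 young ones, 6.25, 6.27, 6.80 and 6.34. That difference of -0.37 had an adjusted p of 0.195. The level over the day was 5.96 in aged and 6.06 in young cells (difference -0.10, SE 0.07, adjusted p = 0.380).

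Nr1d2 (chr14:18204056-18239106, probe set 1416959_PM_at) encodes REV-ERB beta, the repressor of the RORE loop. At ZT8 its log2 expression was 9.24, 9.27, 9.13 and 9.19 in aged cells and 9.504, 9.23, 9.39 and 9.30 in young cells. At ZT20 it was 7.68, 7.52, 7.40 and 7.83 in aged cells and 7.16, 6.83, 7.30 and 7.01 in young cells. At ZT20 every aged array lay above every young array. At ZT0 the ages overlapped, with a mean of 7.49 ± 0.32 in aged and 7.56 ± 0.37 in young cells (SD, n = 4). The lowest time was thus ZT0 in aged and ZT20 in young cells, and the highest mean was 3.28 times the lowest in aged cells and 4.87 times in young cells.

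The rhythm of Nr1d2 had adjusted p = 2.70e-11 in aged and 1.24e-14 in young cells. Its fitted peak was at 9.94 ± 0.33 h in aged and 9.91 ± 0.26 h in young cells (SE), 0.03 h apart (95% interval -0.81 to 0.87 h). The amplitude differed by -0.23, with a 95% interval of -0.46 to -0.0065 for this gene alone, while the test of the rhythms over all genes did not pass (adjusted p = 0.770). The difference of 0.53 at ZT20 did not pass either (adjusted p = 0.0871). In young cells the course departed from a cosine (adjusted p = 0.00625), as did 7.53% of all genes. This call was lost with cell mixture covariates (adjusted p = 0.0843). In aged cells 0 of the 6 departed from it in limma, 4 had an unadjusted p under 0.05, and 4.74% of all genes were called. The level over the day was 8.43 in aged and 8.46 in young cells (difference -0.03, SE 0.08, adjusted p = 0.869).

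The other Nr1d2 probe set had an amplitude of 1.10 in aged and 1.26 in young cells and a peak at 10.19 h in aged and 9.67 h in young cells. Its ZT20 mean was 6.60 ± 0.21 in aged and 5.96 ± 0.14 in young cells, and its ZT8 mean 8.41 ± 0.10 in aged and 8.42 ± 0.15 in young cells (SD, n = 4). Both probe sets thus had the higher ZT20 mean in aged cells. Its level over the day differed by 0.08 (adjusted p = 0.557), against -0.03 in the probe set used. The young course of this probe set departed from a cosine as well (adjusted p = 0.00959).

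**Figure D2:**
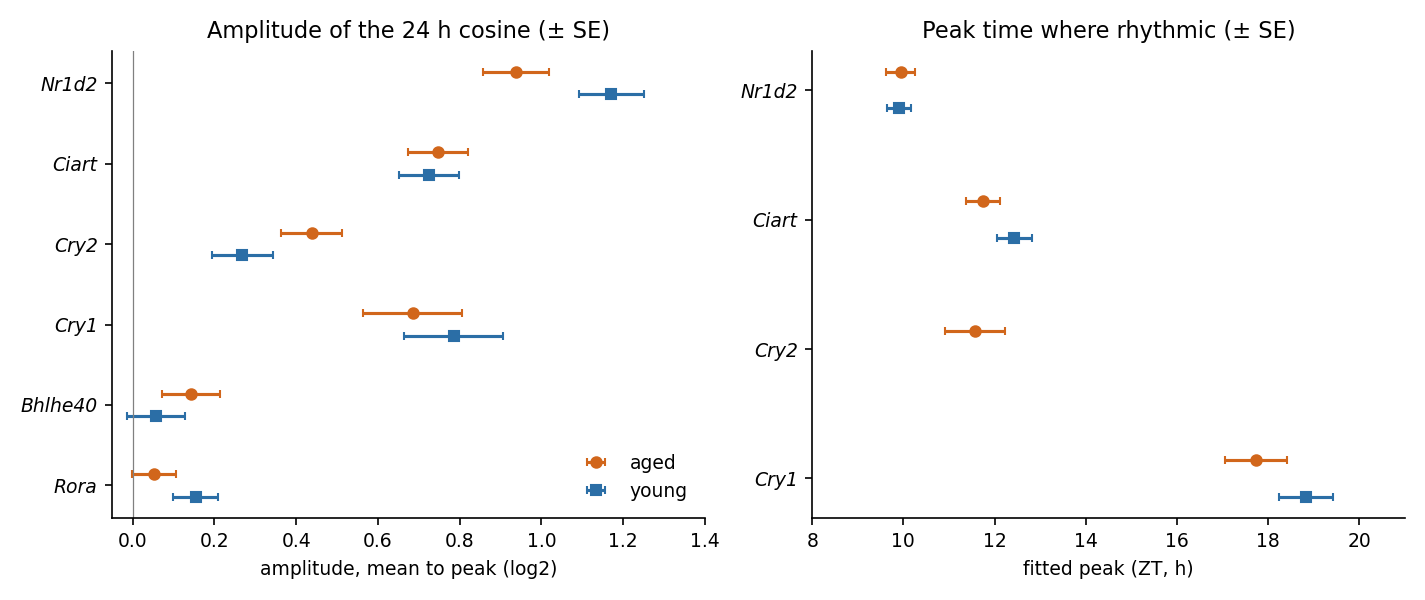
Fitted 24 h cosine of the 6 genes: the amplitude from mean to peak on the log2 scale and the peak time in hours, aged in orange above young in blue, with bars of 1 SE to either side. Peak times are drawn only where the rhythm was called, so Cry2 has one for aged cells alone and Bhlhe40 and Rora have none.

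The order of the peaks was read from the same fits, with intervals that allow for the genes sharing arrays. In aged cells Ciart peaked 1.80 h after Nr1d2 (95% interval 0.80 to 2.79 h), and Cry2 peaked 1.63 h after it (0.06 to 3.20 h). Ciart and Cry2 were 0.16 h apart, with an interval of -1.19 to 1.52 h that holds 0. Cry1 peaked 6.00 h after Ciart (4.45 to 7.56 h), 6.17 h after Cry2 (4.29 to 8.05 h) and 7.80 h after Nr1d2 (6.31 to 9.29 h). In young cells Ciart peaked 2.52 h after Nr1d2 (1.59 to 3.46 h), and Cry1 6.40 h after Ciart (4.97 to 7.84 h) and 8.93 h after Nr1d2 (7.65 to 10.20 h). Nr1d2, Ciart and Cry1 therefore kept the order of their peaks at both ages, with intervals that leave 0 outside.

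Bhlhe40 (chr6:108660629-108666925, probe set 1418025_PM_at) encodes DEC1, the E-box competitor, and was higher in aged cells. Its level over the day averaged 10.17 ± 0.29 in aged and 9.95 ± 0.22 in young cells (SD, n = 24 arrays each), a difference of 0.22 (SE 0.07, adjusted p = 0.0248) and a fold of 1.16. With cell mixture covariates the difference was 0.11 and the call was lost (adjusted p = 0.533). The aged mean was the higher at 5 of the 6 times. In all, 2 of the 6 genes differed in level, Bhlhe40 and Rora, both higher, where 18.6% of all tested genes differed and 9.89% were higher in aged cells.

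At ZT0 Bhlhe40 read 10.57, 10.71, 10.37 and 9.60 in aged cells and 9.72, 10.16, 9.30 and 9.75 in young cells. The aged arrays lay above all young arrays except replicate 4, which lay among them. The difference of 0.58 (95% interval 0.28 to 0.89), a fold of 1.498, passed (adjusted p = 0.0152), as did 5.19% of all genes at ZT0. At ZT20 the values were 9.72, 9.80, 9.81 and 10.04 in aged cells and 10.15, 10.24, 9.98 and 10.08 in young cells, and this was the 1 time with a lower aged mean (difference -0.26, adjusted p = 0.514). Differences at ZT4 (0.38, adjusted p = 0.115) and ZT16 (0.42, adjusted p = 0.131) did not pass.

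The ZT0 call of Bhlhe40 was lost without aged ZT0 replicate 1 (adjusted p = 0.0878), replicate 2 (0.0874) or replicate 3 (0.0625), or without young ZT0 replicate 3 (0.111). The cosine took up 13.0% of its variance in aged and 3.50% in young cells, and no rhythm was called (adjusted p = 0.624 in aged and 0.873 in young). Of the 6 genes its daily course had the smallest p for a difference between the ages, which did not pass (adjusted p = 0.0938). For that test 0 of the 6 genes and 2.59% of all genes passed in limma, and 3 of the 6 had an unadjusted p under 0.05. Without aged ZT0 replicate 4, which read 9.60, the difference of course had an adjusted p of 0.00181, and without young ZT0 replicate 2 one of 0.0305.

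Rora (chr9:68653404-69388246, probe set 1420583_PM_a_at) encodes the RORE activator and was also higher in aged cells. Its level averaged 10.96 ± 0.19 in aged and 10.81 ± 0.21 in young cells (SD, n = 24 arrays each), a difference of 0.15 (SE 0.05, adjusted p = 0.0438) and a fold of 1.11. At ZT4 it read 11.10, 11.17, 10.93 and 11.12 in aged cells and 10.16, 10.90, 10.60 and 10.78 in young cells. Every aged array lay above every young one at this time, and the difference of 0.47 (95% interval 0.23 to 0.71), a fold of 1.39, passed (adjusted p = 0.00906), as did 8.21% of all genes at ZT4. At ZT8, by contrast, the mean was 10.91 ± 0.08 in aged and 10.90 ± 0.09 in young cells (SD, n = 4).

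The ZT4 difference of Rora fell to 0.32 without young ZT4 replicate 1, the array that read 10.16, and the call was lost (adjusted p = 0.0859). The level call was narrow and was lost in 26 of 48 fits that left out 1 array each, with adjusted p from 0.0181 to 0.0725. No rhythm of Rora was called (adjusted p = 0.911 in aged and 0.172 in young), and the cosine took up 3.87% of its variance in aged and 28.5% in young cells. The highest mean was at ZT16 at both ages, 11.16 ± 0.04 in aged and 11.02 ± 0.13 in young cells (SD, n = 4).

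The 4 other Rora probe sets did not behave alike. At ZT4 the probe set 1436326_PM_at (mean over all arrays 9.98) averaged 10.29 ± 0.16 in aged and 9.63 ± 0.51 in young cells (SD, n = 4), a difference of 0.67 (adjusted p = 0.00514). At ZT4 the probe set 1436325_PM_at (mean 8.79) averaged 9.13 ± 0.15 in aged and 8.05 ± 0.57 in young cells, a difference of 1.08 (adjusted p = 2.21e-05). In a setting chosen after seeing the data, without young ZT4 replicate 1, the difference was 0.41 in 1436326_PM_at (adjusted p = 0.0634) and 0.82 in 1436325_PM_at (adjusted p = 0.000226). Both were also higher in aged cells over the day, by 0.30 (adjusted p = 0.00240) and 0.41 (adjusted p = 4.36e-04). The course of 1436325_PM_at differed between the ages (adjusted p = 0.0129), where the probe set used had an adjusted p of 0.288. The probe set 1443443_PM_at (mean 5.69) gave -0.07 over the day (adjusted p = 0.584) and -0.05 at ZT4 (adjusted p = 0.926). The probe set 1458145_PM_at, whose mean of 3.82 lies under the dim limit, gave 0.02 over the day (adjusted p = 0.805) and -0.34 at ZT4 (adjusted p = 0.0812). Which Rora transcripts each probe set reads was not analysed here.

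**Figure D3:**
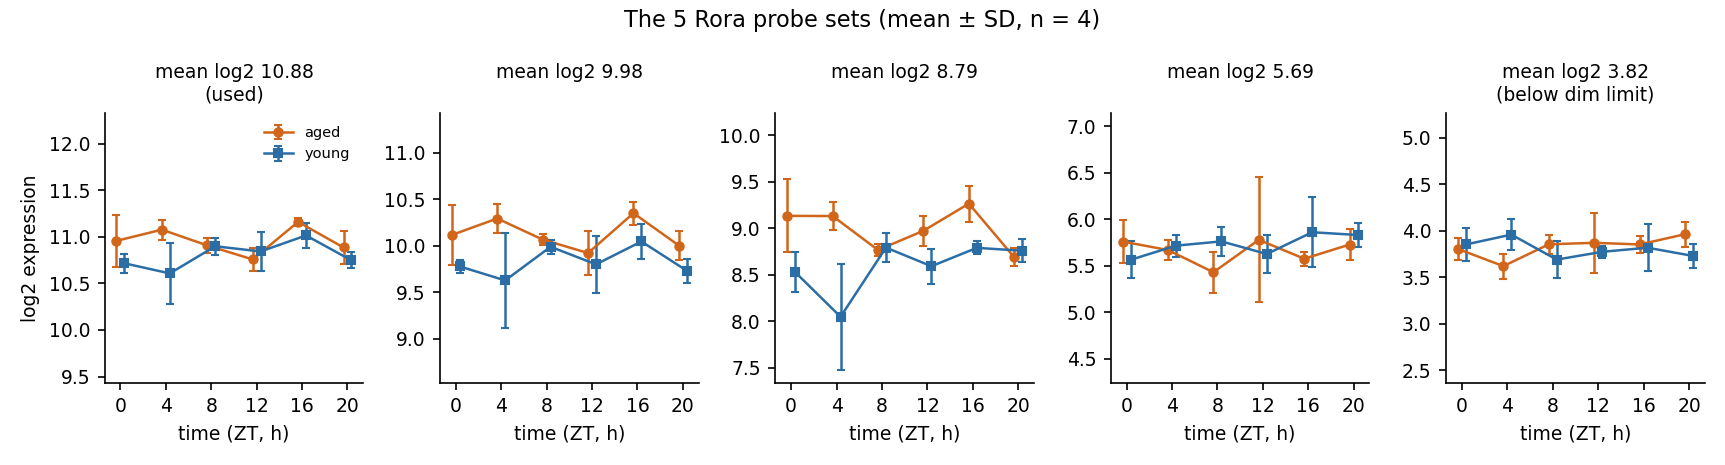
Log2 expression of the 5 Rora probe sets (y axis) against time of day in hours (x axis), aged in orange and young in blue, as mean and SD of 4 arrays. The 3 probe sets of highest mean lie higher in aged cells at ZT4, and the other 2 do not.

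Some markers of other cells differed in level between the ages, as Bhlhe40 and Rora did. Measures of the arrays, given below, were not tested against age. Of 5 tested T cell markers 3 were higher in aged cells, named here after their values were seen: Thy1 by 0.65, Cd3e by 0.32 and Cd3g by 0.27. The summed T cell signal, as log2 of the summed linear values, ran from 9.13 to 10.68 over aged arrays and from 8.11 to 10.13 over young arrays, and is mostly Thy1, which averaged 9.74 in aged and 9.09 in young cells. The other T cell markers were near the dim limit: Cd3e averaged 4.37 in aged and 4.05 in young cells, Cd3g 4.50 in aged and 4.23 in young, Cd3d 4.83 in aged and 4.81 in young, and Cd8a 4.32 in aged and 4.27 in young. Of 4 tested Langerhans and myeloid markers 1 was higher (Epcam, by 0.18). The summed signal of this list was 10.33 to 10.93 in aged and 10.13 to 10.74 in young arrays. It is mostly Epcam, which averaged 10.39 in aged and 10.21 in young cells. H2-Ab1, the next brightest, averaged 7.07 in aged and 6.97 in young cells and was not called, and Cd207 and Ptprc lay under the dim limit. The adipocyte marker Lpl was higher by 0.88, with a summed signal of 5.96 to 7.46 in aged and 5.69 to 6.71 in young arrays, and Adipoq and Fabp4 lay under the dim limit. Of 5 bulge markers 1 was higher and 1 lower, and of 6 tested suprabasal markers 1 was lower (Lor, difference -0.75). Of 8 basal markers 2 were higher and 1 lower. None of the tested markers of fibroblasts (4), endothelium (1), melanocytes (1) or muscle (3) passed the test of level. Over all tested genes 18.6% passed it, and 9.89% were higher in aged cells.

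At ZT4, the time of the Rora call, 2 of 5 T cell and 2 of 5 bulge markers were higher in aged cells. So were 1 of 4 Langerhans and myeloid, 1 of 1 adipocyte and 1 of 8 basal markers. Of all genes 8.21% differed at ZT4, in either direction. With the cell mixture covariates in the fit, the difference of Bhlhe40 was 0.11 (adjusted p = 0.533) and that of Rora 0.09 (adjusted p = 0.496), and 9.83% of all genes passed. In the same fit Rora at ZT4 differed by 0.43 (adjusted p = 0.275), and 1.6% of all genes passed there. The background of GC-rich control probes averaged 6.19 ± 0.36 in aged and 6.38 ± 0.34 in young arrays (SD, n = 24), and at ZT4 6.25 in aged and 6.60 in young arrays. With control probe measures in the fit, the Rora difference was 0.10 over the day (adjusted p = 0.274) and 0.35 at ZT4 (adjusted p = 0.0910), and 15.5% of all genes passed for level. The ZT0 difference of Bhlhe40 passed both with cell mixture covariates and with control probe measures in the fit. At ZT0 1.72% of all genes passed in the first of these fits and 4.59% in the second. The part of cell mixture and array quality in the results for Bhlhe40 and Rora was not tested beyond these fits.

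**Figure D4:**
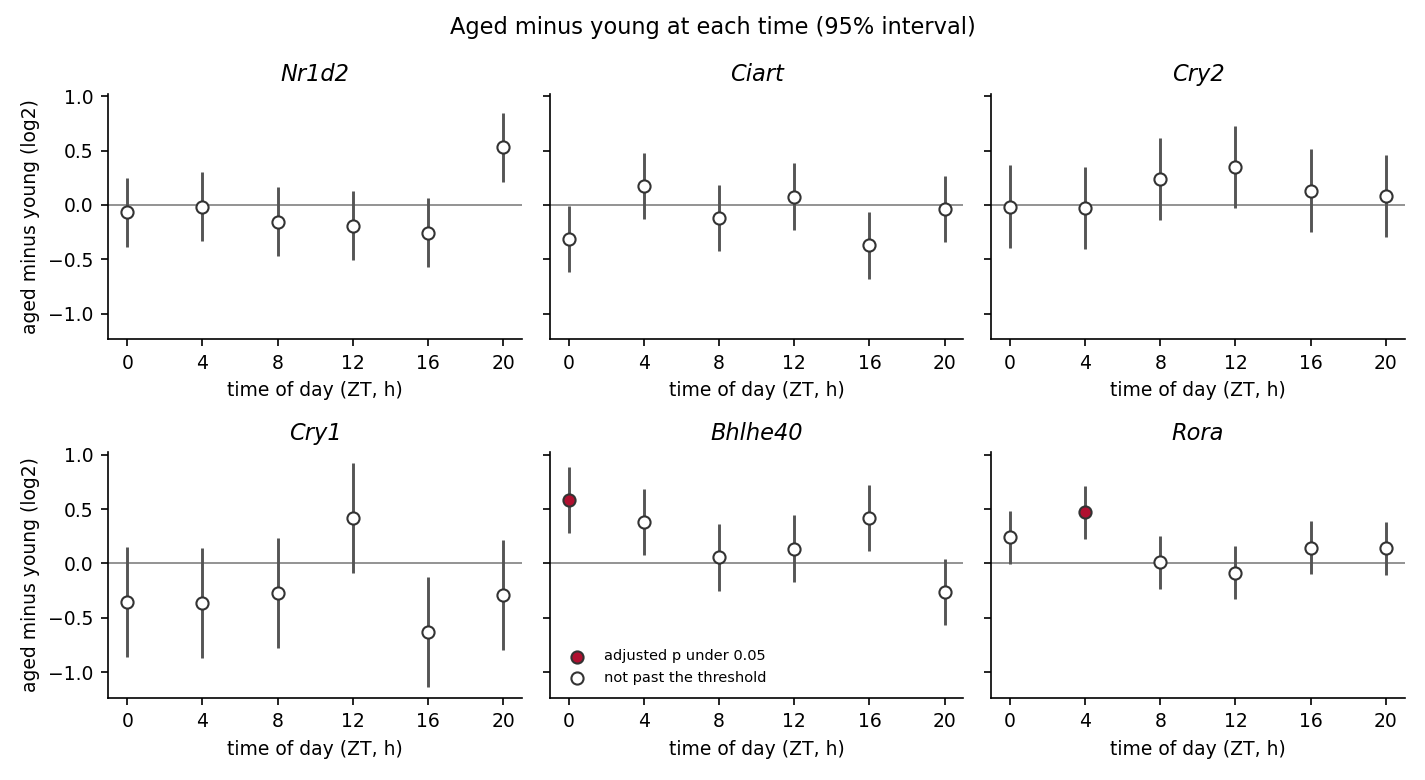
Aged minus young difference in log2 expression (y axis) of the 6 genes at each time of day in hours (x axis), with 95% intervals and filled points where the test passed. The intervals are those of single tests; after adjustment over all genes 2 of the 36 differences passed, Bhlhe40 at ZT0 and Rora at ZT4.

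Over all times and genes, 36 differences between aged and young cells were tested and 2 passed, where 3.58% of all pairs of gene and time did. An unadjusted p under 0.05 was reached by 8 of the 36, and the aged mean was the higher in 18.

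The rest of the clock was counted in the same fits. Of 13 measured core clock genes outside the 6, 11 were tested. Of these, 7 were rhythmic in aged cells (1.36% of all genes) and 7 in young cells (6.27% of all genes). In aged cells these were Dbp and Tef, activators of clock output, Npas2, a partner of BMAL1, Per2 and Per3, repressors, Timeless and Arntl. Per1 was rhythmic in young cells in place of Arntl, with an amplitude of 0.20 in aged and 0.54 in young cells (SE 0.09). Arntl, whose protein drives the E-box genes, had an amplitude of 0.72 in aged and 0.42 in young cells (SE 0.15; adjusted p = 0.0188 in aged and 0.189 in young). None of these differences of rhythm passed, and the difference of course passed for Per1 (adjusted p = 0.0230). Per2 was higher in aged cells by 0.41 (adjusted p = 0.000632), and Nfil3, a repressor that competes with DBP, lower (difference -0.27, adjusted p = 0.000984). Hlf, another activator of clock output, varied between times at both ages (adjusted p = 0.0064 in aged and 0.0143 in young) without a called cosine. The median difference of level over the 11 genes was 0.09, against -0.002 over all tested genes.

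**Figure D5:**
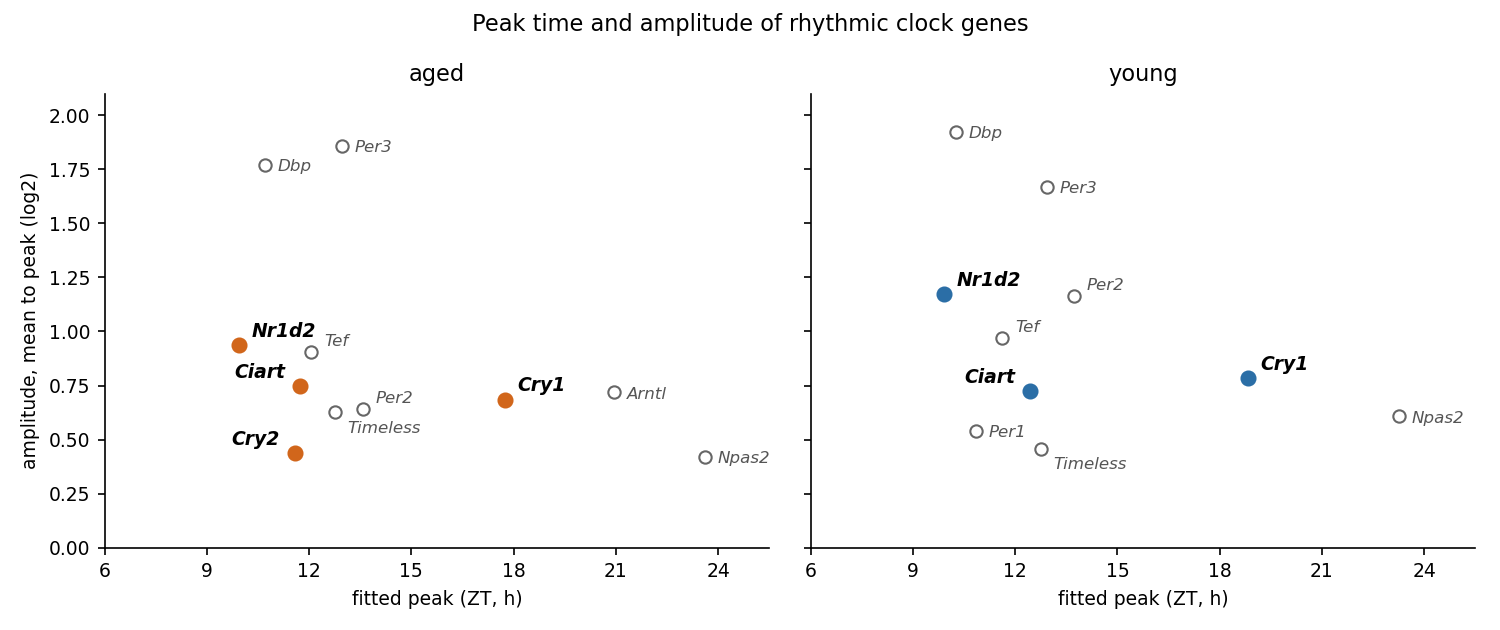
Peak time in hours (x axis) and amplitude on the log2 scale (y axis) of rhythmic clock genes, aged in the left panel and young in the right; filled points are Nr1d2, Ciart, Cry1 and Cry2 and open points other core clock genes. In both panels Nr1d2 lies close to Dbp in time, and Cry1 lies between Per2 and Npas2.

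A list of 16 measured genes, of ubiquitin ligases, deubiquitinases and kinases, holds those that set how long cryptochrome and PER proteins last. Of the 15 tested, 0 were rhythmic in aged cells, where 1.36% of all genes were, and 1 in young cells, where 6.27% of all genes were: Prkaa2, a catalytic subunit of AMP-activated kinase, with an amplitude of 0.04 in aged and 0.32 in young cells (SE 0.07, adjusted p = 0.971 in aged and 0.0125 in young). Usp2, a deubiquitinase, was higher in aged cells, 8.74 ± 0.55 in aged and 7.82 ± 0.56 in young (SD, n = 24 arrays each; difference 0.92, adjusted p = 3.73e-06). Skp1 and Cul1, subunits of the SCF ligases, were lower, with differences of -0.14 (adjusted p = 0.0075) and -0.20 (adjusted p = 0.0275). The young courses of Prkaa2 and Ddb1, an adaptor of CUL4 ligases, varied between times, 2 of 15 where 17.5% of all genes did. The median difference of level over the list was -0.04.

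Among 7 tested cofactors of REV-ERB and ROR receptors, 0 were rhythmic at either age, where 1.36% of all genes were in aged and 6.27% in young cells. So short a list would hold few or none at these shares. Nrip1, a corepressor of nuclear receptors, was higher in aged cells by 0.27 (adjusted p = 0.0049), and Ncoa1, a coactivator, by 0.15 (adjusted p = 0.0176), with a median over the list of 0.09. These were 2 of 7 higher, where 9.89% of all genes were. The young courses of Ppargc1b, a coactivator, and Nrip1 varied between times, 2 of 7 where 17.5% of all genes did. Of 9 measured genes known as REV-ERB and ROR targets, 7 were tested. Arntl, Npas2, Cry1 and E2f8 were rhythmic in aged cells, 4 of 7 where 1.36% of all genes were. Npas2 and Cry1 were rhythmic in young cells, 2 of 7 where 6.27% of all genes were. Cry1 is 1 of the 6 genes, and Arntl and Npas2 were already counted in the core clock list. Of the rhythmic targets only E2f8 was thus not counted before, and these counts repeat earlier calls. E2f8, a cell cycle repressor, had an amplitude of 0.31 in aged and 0.23 in young cells (SE 0.07). Pparg, a nuclear receptor of fat metabolism, was higher in aged cells by 0.48 (SE 0.08, adjusted p = 4.88e-06), with 5.64 ± 0.31 in aged and 5.16 ± 0.24 in young (SD, n = 24 arrays each).

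The genes whose values went most closely with each member were found by Pearson's r over the 48 arrays, centred within each age, as a description, since arrays share time of day and array quality. For Nr1d2 they were Dbp (0.88), Tef (0.79) and Ccnd2 (0.75), a cyclin, with Ttc9 (-0.86) at the other end. For Ciart they were Tef (0.86), Per3 (0.85) and Dbp (0.84), again with Ttc9 (-0.83) opposite, and Ttc9 peaked at 23.22 h in aged and 23.70 h in young cells. For Cry2 they were Tef (0.77), Itpr3 (0.76), a calcium release channel, and Dbp (0.73), with Npas2 (-0.67) opposite. The likeness of Nr1d2 with Ciart was 0.71, and of Ciart with Cry2 0.69.

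For Cry1 they were Lonrf3 (0.70), Kctd12 (0.67) and Btbd10 (0.67), with Limk2 (-0.77), a kinase of the actin cytoskeleton, opposite. None of Lonrf3, Kctd12 and Btbd10 was rhythmic past the threshold at either age. Bhlhe40 went with Mnt (0.72), a repressor of the MYC network, Tnfaip3 (0.71), an inhibitor of NF-kB signalling, and Arid5a (0.70), an RNA-binding protein of inflammatory transcripts, with Pnn (-0.65) opposite. Rora went with Elovl7 (0.76), a fatty acid elongase, Mia3 (0.74) and Zfp948 (0.73), with Nab2 (-0.74) opposite. None of the nearest 3 of Bhlhe40 or Rora was rhythmic at either age, and r between Bhlhe40 and Rora was 0.21.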

How the data were processed

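The deposited values are log2 probe set signals made by the authors with RMA, per the submitters' processing notes; no version is given in the sources used here, nor whether both ages were normalised as 1 set. Per the labels' protocols, 25 ng of RNA was amplified in 17 cycles. Symbols are those of GEO's platform annotation: of 45141 probe sets 28898 had 1 symbol, 551 several and 15692 none. Genes in the lowest 25% of means were left out. Limma 3.58.1 in R 4.3.3 (lmFit, eBayes) fitted all 48 arrays, with a 24 h cosine and sine per age or a mean per age and time, and Benjamini-Hochberg adjustment over 12823 genes (threshold 0.05). Amplitude and peak intervals are 95%, by the delta method. Scripts were tested on simulated data. Samples were grouped by the age and time in their titles. The members, gene lists and tests were chosen with earlier results of these data known. The genes named are the 6 members, for each the 3 genes of highest and the 1 of lowest correlation, and list genes past a test, up to 6 per list. Alternatives changed the dim limit, probe set choice, scaling, array weights, covariates, variance model, replicate block, rhythm test and the arrays used.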

Additional observations from a re-analysis of the deposited data

Results flagged for a closer look

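Each gene, age and time gave a set of 4 arrays, 72 sets in all. In 5 of them 1 array stood apart from the others by Dixon's criterion, where chance gives about 3.6. Cry2 read 8.10 in aged ZT0 replicate 2, above its group, and Ciart read 6.74 in aged ZT8 replicate 4, above its group. Bhlhe40 read 10.09 in aged ZT4 replicate 4, below its group. Ciart read 6.80 in young ZT16 replicate 3, above its group, and Nr1d2 read 9.09 in young ZT12 replicate 2, below its group. The 5 values came from 5 different mice.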

How the results depend on the processing

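The rhythms of Nr1d2 and Ciart passed at both ages under every alternative run, and no alternative called a difference of rhythm. Members rhythmic in aged cells numbered 2 in the rank test in place of 4, since Cry1 (adjusted p = 0.184) and Cry2 (0.165) were lost there. Members with a different level numbered 1 in place of 2 with arrays centred on their median, without the 4 arrays of lowest weight, with technical covariates and with the replicate block, 0 with cell mixture covariates, and 1 to 2 leaving out single arrays. With the replicate block the Rora level stayed at 0.15 (adjusted p = 0.0518), and the block ended no other call. The sample titles do not say what the replicate numbers stand for. Residuals of same-numbered arrays had a mean correlation of -0.000737 (single pairs from -0.461 to 0.486), and those of other numbers 0.000912. Such means cannot show whether the numbers pair the mice, since an effect on few genes or groups would hardly move them. Members with a different daily course numbered 1 in place of 0 with array weights and with cell mixture covariates, Bhlhe40 in both, and 0 to 1 leaving out arrays. Pairs of member and time numbered 4 in place of 2 with array weights, 1 without the 4 arrays, with technical and with cell mixture covariates, and 1 to 4 leaving out arrays. Members departing from a cosine numbered 4 in place of 1 with array weights, 3 without the 4 arrays, 2 with technical covariates, 0 with cell mixture covariates, and 1 to 2 leaving out arrays. The Bhlhe40 level passed in 58 of 59 alternatives. Without the 4 arrays its ZT0 difference had adjusted p = 0.0560, and Rora at ZT4 0.0768. The Nr1d2 level, -0.03, turned to 0.0256 with the mean of its probe sets, 0.0674 with cell mixture covariates and 0.0767 in the other probe set, and ran from -0.0538 to 0.000627 leaving out arrays. Rora turned to -0.0695 (level) and -0.0468 (ZT4) in probe set 1443443_PM_at, and to -0.34 (ZT4) in 1458145_PM_at. The Cry1 level passed with array weights (-0.30, adjusted p = 0.0467). Shares of all genes under the alternatives are given only for cell mixture and technical covariates, and only for level and single times. The other counts of members under alternatives thus have no share of all genes beside them. The cause of these shifts was not tested. Of these 2 Rora probe sets, 1458145_PM_at has a mean of 3.82, under the dim limit, and 1443443_PM_at a mean of 5.69, above it.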
